A study of Mus musculus with 40 samples.

Results

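Germline and meiosis genes are genes whose products act mainly in germ cells, and a set of 38 of them was followed through mouse CD4 T cells that carry or lack the histone methyltransferase Setdb1. The members were chosen by name: each row of the RNA table whose gene symbol was on the list was taken, and 37 of the 38 symbols were found among the 39179 genes of that table. The remaining one, Meioc, stands in the table under its older symbol Gm1564 (ENSMUSG00000051455), had a highest group mean of 7.6 normalised read counts and is left out of the counts of members. The rule itself uses no measured value, but the list of names was drawn up with earlier results of these data known.

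The RNA libraries came from CD4+ T cells of the spleen of C57BL/6 mice, labelled Setdb1+/+ (WT) or Setdb1-/- (Setdb1 KO), in 6 groups. Naive cells, taken before culture, gave 4 WT and 3 Setdb1 KO libraries. Th2 cells, cultured for 6 days on anti-CD3 (10 ug/mL) and anti-CD28 (1 ug/mL) with IL-4 (50 ng/mL), an antibody that blocks interferon-gamma, and IL-2 (30 IU/mL) from day 3, gave 3 and 3. Th2-Th1 cells, which are Th2 cells washed at day 6 and moved to IL-12 (10 ng/mL) with an antibody that blocks IL-4, gave 2 WT and 3 Setdb1 KO libraries at a labelled culture time of 2 days. Chromatin was described by 1 deposited peak list per condition: H3K9me3, the mark that Setdb1 deposits, in naive and Th2 cells of both genotypes and in Suv39h1-/- Th2 cells, and H3K27ac, a mark of active promoters and enhancers, and open chromatin (ATAC-seq) in Th2 cells of both genotypes. The labels do not name a Cre, a promoter or the mice behind a library, so every p-value below measures the spread between libraries, which may be technical.

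In germ cells these genes serve several linked tasks. Piwi proteins loaded with small RNAs (piRNAs), with helicases and Tudor-domain scaffolds around them, silence transposons. A meiosis-specific cohesin and the synaptonemal complex hold the paired chromosomes, and recombination enzymes cut and repair their DNA. In most somatic cells such genes are kept silent by DNA methylation of their promoters, by H3K9 methylation and by complexes of E2F6, MGA and MAX, which bind the letters GCGGGA and CACGTG.

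Total reads per RNA library, in megareads (M) and recovered from the deposited values, ran from 10.02 to 44.72 M, and the Setdb1 KO libraries of the cultured groups were the deeper ones (36.26 to 44.72 M in Th2, against 10.14 to 13.26 M in Th2 WT). The target gene did not follow its label in culture. Setdb1 RNA was at 1336, 1366, 1325 and 1214 normalised read counts in naive WT and 1103, 933 and 984 in naive Setdb1 KO. In Th2 it was at 694, 933 and 841 in WT and 8070, 9044 and 8342 in Setdb1 KO, and in Th2-Th1 at 1611 and 1594 in WT and 7389, 5430 and 5914 in Setdb1 KO. The table counts whole genes, so these values do not check a deletion of part of the gene, and "Setdb1 KO" below always means the libraries labelled so. The summed level of 5 markers of CD4 T cells was high in all groups, from 27050 up, but lower in Th2-Th1 Setdb1 KO (34250 to 40090) than in Th2-Th1 WT (74760 to 81800). The sum of 4 erythroid markers was 17.5 to 34.3 in Th2 WT and 379.7 to 416 in Th2 Setdb1 KO, with Hbb-bs at 0 in both. The sum of 3 NK cell markers was 101.1 to 446.6 in naive WT and 20.6 to 41.6 in naive Setdb1 KO, and 0 in both Th2-Th1 WT libraries against 21.2 to 42.1 in Th2-Th1 Setdb1 KO. Of 7 markers of maturing germ cells, Tnp2 was high in all cultured groups (276.1 ± 42.2 in Th2 WT, n = 3, and 262.8 ± 8.03 in Th2 Setdb1 KO, n = 3), while Prm1, Prm2, Tnp1, Acrv1 and Zp3 had no read in any Th2 WT library and Prm1 reached a mean of 15.1 in Th2-Th1 Setdb1 KO. The summed level of 15 cell cycle markers was 4700 to 5146 in naive WT and 12990 to 15770 in naive Setdb1 KO, 72720 to 75200 and 145800 to 170400 in Th2, and 96410 to 98580 and 71100 to 101900 in Th2-Th1. Their part in the results below was not tested.

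A member was called detected in a group when its mean was at least 10 normalised read counts. In naive cells 15 of 37 members were detected in WT and 13 in Setdb1 KO, beside 35.1% and 33.7% of all genes in the table. In Th2 cells 14 were detected in WT and 17 in Setdb1 KO (34.5% and 34.2% of all genes), and in Th2-Th1 cells 11 and 15 (34% and 34.6%). Tdrd7, Tdrkh, Stag3, Syce2, Msh5 and Tex15 were detected in all 6 groups. Tdrd9, Dmc1 and Tcfl5 were detected in Setdb1 KO groups only, and Tdrd1, Ddx4 and Sycp2 in a WT group only. The last 3 owe that to naive WT replicates 1 and 3, in which 21283 and 25556 genes had a read at equal depth, as 22217 did in naive Setdb1 KO replicate 2, against 15122 to 18617 in the other libraries. Without these 3 libraries 11 members were detected in naive WT and 14 in naive Setdb1 KO. In all, 22 members were detected in at least 1 group and 15 in none: Tdrd5, Mael, Asz1, Mov10l1, Smc1b, Sycp1, Sycp3, Hormad1, Mei1, Tex11, Taf7l, Tex101, Slc25a31, Zfp42 and Dppa4. Tex101 had no read in any of the 18 libraries.

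**Figure D1:**
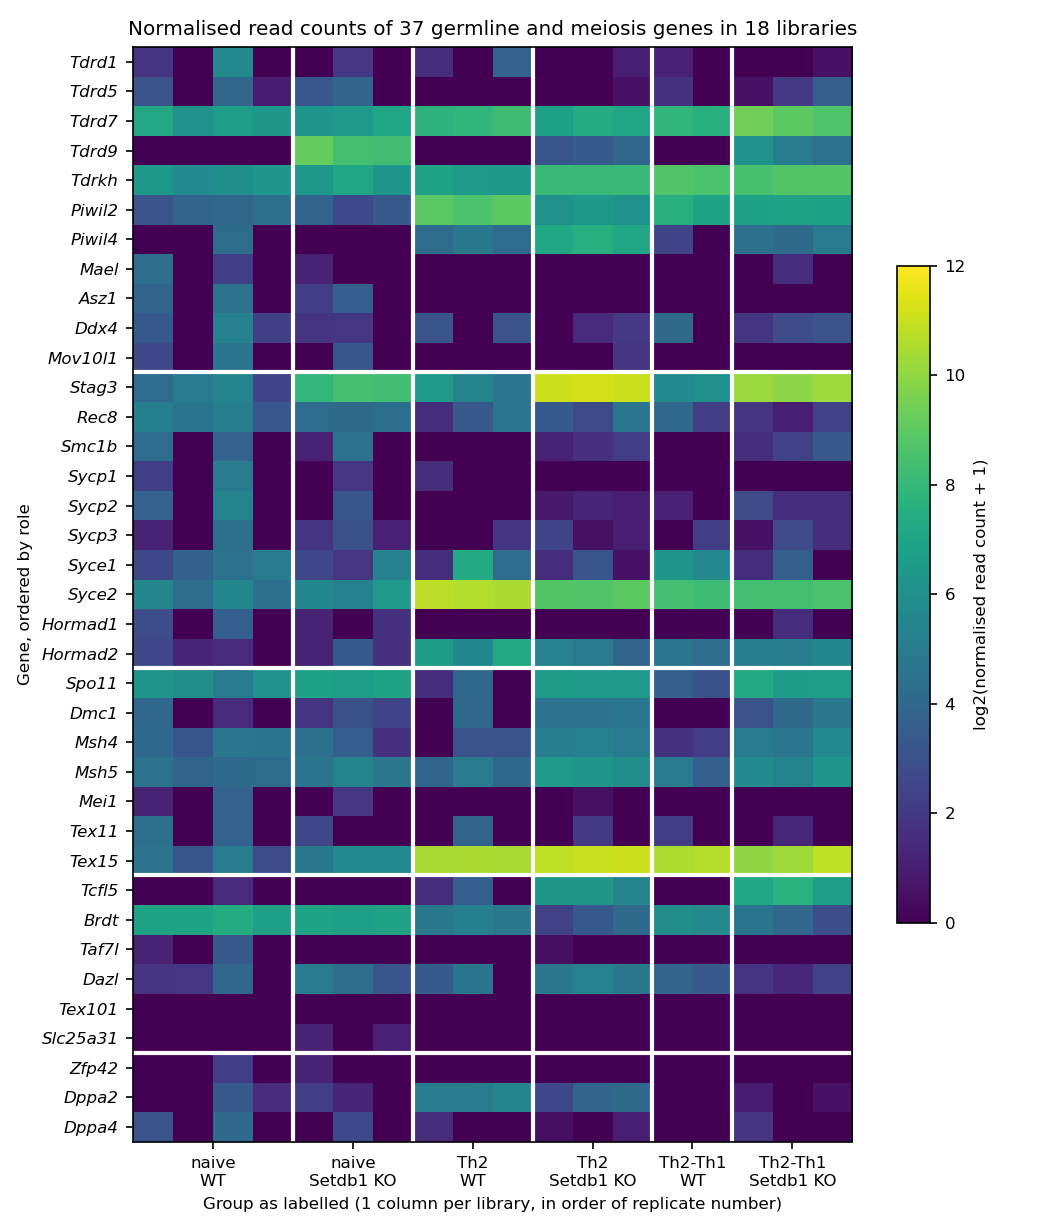
Level of each of the 37 members (rows, in blocks by role) in each of the 18 RNA libraries (columns, grouped as labelled), as log2 of the normalised read count plus 1. Tdrd9 is at 0 in all 9 WT libraries and above 0 in all 9 Setdb1 KO libraries, Stag3 is brightest in Th2 Setdb1 KO, and the rows that stay dark are the 15 members detected in no group.

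The genotype comparisons asked which members differed between Setdb1 KO and WT within each condition, by limma on log2(normalised read count + 1) with Benjamini-Hochberg adjustment over 17254 genes. Of 37 members 26 passed the filter of at least 10 in at least 2 libraries (Tdrd9 through Setdb1 KO libraries alone, and Tdrd1, Ddx4, Sycp2 and Tex11 through WT libraries alone). In bulk RNA a smaller share of expressing cells and less RNA per cell cannot be told apart. In naive cells 3 members were higher in Setdb1 KO and 0 lower (background: 7.43% of all genes tested were called higher and 3.45% lower). Those 3 were Tdrd9, Stag3 and Tex15, and 6 members had an unadjusted p under 0.05. In Th2 cells 9 were higher and 5 lower (29.3% and 24.7% of all genes, 54.0% in all). In Th2-Th1 cells 9 were higher and 2 lower (17.6% and 16.1%). The median log2 difference of the 26 members was -0.07 in naive cells, 0.47 in Th2 and 0.65 in Th2-Th1, beside 0.00, 0.13 and 0.09 over all genes tested. Scaling each library to the same total moved the median of all genes to 0.53 in Th2 and 0.35 in Th2-Th1, and the members' Th2 calls to 11 higher and 3 lower of 26, where 43.3% of all genes were then higher and 15.6% lower. In Th2-Th1 the members' calls stayed at 9 and 2 in number, with 29.0% and 10.0% of all genes. With members absent from a group set at their lower bound, the Th2-Th1 median was 0.53. In all, 16 members were called in at least 1 of these comparisons, 2 of them (Tdrd9 and Stag3) higher in all 3 conditions, and 1, Tdrd7, in opposite directions. The matching shares of all genes were not computed, and 54.0% of all genes tested were called in Th2 alone. These counts are therefore no result about the members as a set.

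**Figure D2:**
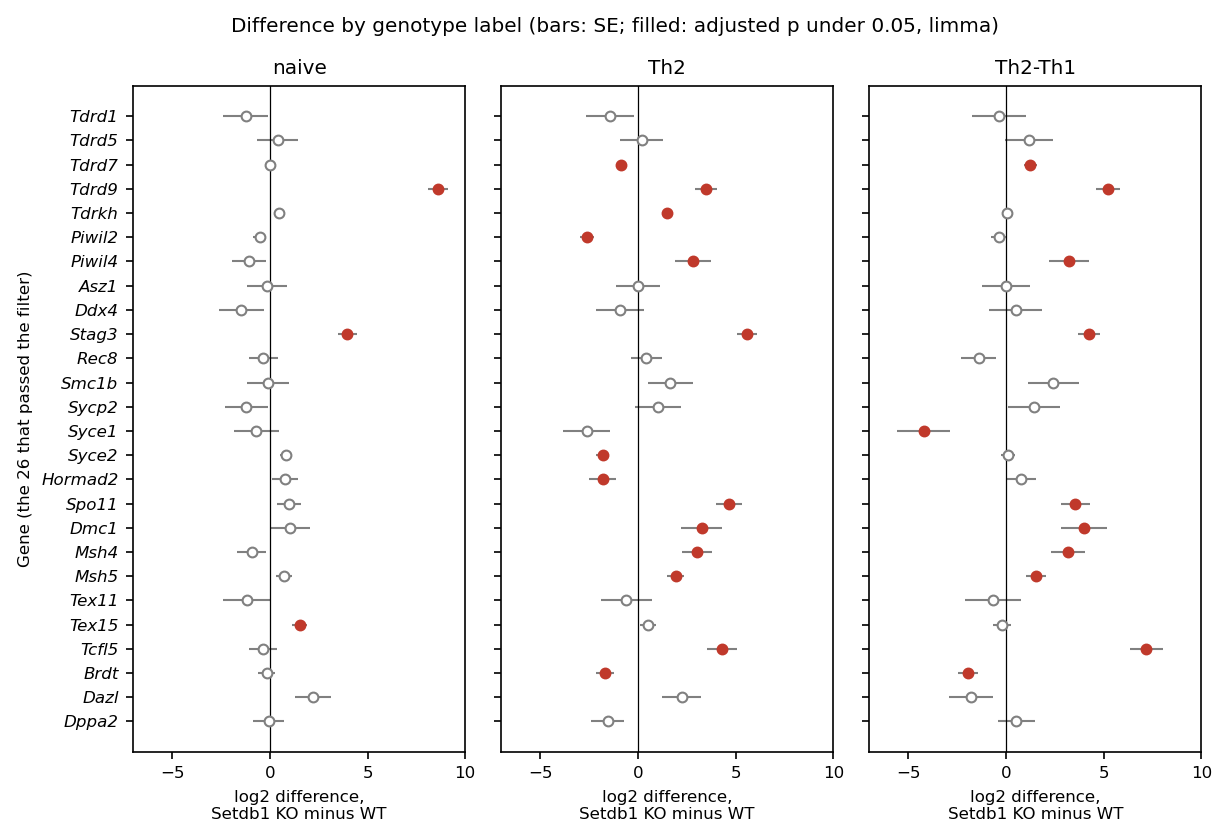
Log2 difference of Setdb1 KO minus WT (x axis, log2(normalised read count + 1) scale) for the 26 members that passed the filter (y axis) in naive, Th2 and Th2-Th1 cells. Bars are standard errors, and filled points have an adjusted p under 0.05 in limma: 3 in naive cells, 14 in Th2 and 11 in Th2-Th1.

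Among the 11 piRNA pathway and Tudor genes, 9 passed the filter, and Tdrd9 stood out. Tdrd9 is an RNA helicase that works with Piwi proteins. It had no read in any WT library of any group, against 564, 329 and 314 normalised read counts in the naive Setdb1 KO libraries. The groups were far apart. With 3 reads per library as the floor for WT, Tdrd9 was at least 99.8-fold higher in naive Setdb1 KO (adjusted p = 1.79e-09, limma). Tdrd9 passed the filter through Setdb1 KO libraries alone, so its p-values here are not independent of that filter. In Th2 Setdb1 KO it was at 7.55, 9.85 and 14.5, at least 1.67-fold higher (adjusted p = 2.99e-05), and in Th2-Th1 Setdb1 KO at 70.0, 32.6 and 21.2, at least 11.7-fold higher (adjusted p = 3.59e-06). The level in Setdb1 KO was thus highest before culture. The interaction with Th2 culture had an adjusted p of 2.77e-05 in limma and 0.9999 in edgeR. With WT at 0 in both conditions it compares the Setdb1 KO levels alone. It cannot show whether the fold difference by genotype changed. The gene spans chr12:111971488-112068854 (mm10). Its RefSeq promoter window, chr12:111971309-111971608 on the + strand, from 250 bases before to 50 after the start, is shown because it holds 2 CACGTG matches, which are in capitals.
Tdrd9: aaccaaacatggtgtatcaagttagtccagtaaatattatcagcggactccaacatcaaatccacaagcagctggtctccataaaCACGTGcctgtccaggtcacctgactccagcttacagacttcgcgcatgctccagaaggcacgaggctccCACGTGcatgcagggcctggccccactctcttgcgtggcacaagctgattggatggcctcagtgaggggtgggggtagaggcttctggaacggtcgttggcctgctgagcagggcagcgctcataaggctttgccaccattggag

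Piwil4 and Piwil2, both Piwi proteins, moved in opposite directions in Th2 cells. Piwil4 was at 18.1, 27.8 and 17.5 in Th2 WT and at 145, 181 and 133 in Th2 Setdb1 KO. The groups did not overlap, and the difference was 2.82 on the log2 scale (SE 0.92, adjusted p = 0.014). In Th2-Th1 it was at 4.72 and 0 in WT and 19.6, 16.5 and 30.1 in Setdb1 KO (log2 difference 3.23, SE 1.03, adjusted p = 0.02), and that call was lost without WT replicate 2 (adjusted p = 0.288) or Setdb1 KO replicate 3 (0.0608). In naive cells 1 of 7 libraries had reads of Piwil4. Piwil2 was at 490, 384 and 499 in Th2 WT and at 67.5, 82.4 and 70.9 in Th2 Setdb1 KO, lower by 2.61 on the log2 scale without overlap: its log2 difference was -2.61 (SE 0.36, adjusted p = 5.1e-06). In Th2-Th1, at 184 and 126 in WT and 114, 121 and 114 in Setdb1 KO, it did not pass the test (log2 difference -0.38, adjusted p = 0.527). In naive cells it stayed between 5.55 and 20.8 in all 7 libraries, with overlapping groups.

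2 Tudor-domain genes of this group also changed. Tdrkh, which binds Piwi proteins at mitochondria, was at 119, 87.2 and 82.3 in Th2 WT and 272, 274 and 273 in Th2 Setdb1 KO (log2 difference 1.51, SE 0.23, adjusted p = 1.73e-05). In Th2-Th1 it was at 431 and 381 in WT and 360, 444 and 444 in Setdb1 KO, with overlapping groups (log2 difference 0.03, adjusted p = 0.962). Its naive values, 83.6, 54.8, 61.6 and 78.4 in WT and 84.2, 133 and 78.0 in Setdb1 KO, overlapped too. Tdrd7, a scaffold of germ cell RNA granules, was at 216, 236 and 312 in Th2 WT and 113, 172 and 137 in Th2 Setdb1 KO (log2 difference -0.85, adjusted p = 0.0161). In Th2-Th1 the order was the other way round, 241 and 196 in WT against 669, 507 and 411 in Setdb1 KO (log2 difference 1.25, adjusted p = 0.00477). In naive cells the groups overlapped, between 68.5 and 148 in WT and between 78.0 and 133 in Setdb1 KO. The Th2 call of Tdrd7 was lost with equal totals as the scaling (adjusted p = 0.275), without WT replicate 3 (0.0753) or without Setdb1 KO replicate 1 (0.0756), and the Th2-Th1 call without WT replicate 2 (0.0632). Tdrd1, Tdrd5, Mael, Asz1, Ddx4 and Mov10l1 were called in no genotype comparison.

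Stag3, the meiosis-specific subunit that replaces Stag1 or Stag2 in the cohesin ring, was higher in Setdb1 KO in every condition. Its values were 17.5, 28.8, 41.6 and 4.72 in naive WT and 242, 336 and 322 in naive Setdb1 KO. In Th2 they were 88.7, 40.8 and 24.9 in WT and 2194, 2398 and 2132 in Setdb1 KO. In Th2-Th1 they were 50.8 and 63.9 in WT and 1167, 967 and 1207 in Setdb1 KO. No Setdb1 KO library overlapped a WT library of its condition. The log2 differences were 3.96 (SE 0.48, adjusted p = 1.33e-05), 5.61 (SE 0.51, adjusted p = 1.94e-08) and 4.26 (SE 0.57, adjusted p = 1.14e-05), in that order, and each kept its call under every alternative run. The span of Stag3 in RefSeq, chr5:138272514-138312397, overlaps that of Gpc2, whose start lies beside the Stag3 start. The sources used here do not say whether counting used strand, so reads of such neighbours cannot be told apart. Gpc2, named here because of its position and after its values were seen, was at 15.6 ± 14.4 in Th2 WT and 100.8 ± 2.81 in Th2 Setdb1 KO (n = 3 each, adjusted p = 0.00161, limma). In naive cells Gpc2 was at 30.2 ± 19.8 in WT (n = 4), no lower than Stag3, and 94.8 ± 9.33 in Setdb1 KO (n = 3, adjusted p = 0.169, limma). Its Th2-Th1 level was 7.59 ± 4.05 in WT (n = 2) and 55.6 ± 23.1 in Setdb1 KO (n = 3, adjusted p = 0.0369, limma). The promoter window of Stag3, chr5:138280259-138280558 on the + strand, is shown for its 1 CACGTG match and 1 GCGGGA match (read as TCCCGC on this strand), both in capitals.
Stag3: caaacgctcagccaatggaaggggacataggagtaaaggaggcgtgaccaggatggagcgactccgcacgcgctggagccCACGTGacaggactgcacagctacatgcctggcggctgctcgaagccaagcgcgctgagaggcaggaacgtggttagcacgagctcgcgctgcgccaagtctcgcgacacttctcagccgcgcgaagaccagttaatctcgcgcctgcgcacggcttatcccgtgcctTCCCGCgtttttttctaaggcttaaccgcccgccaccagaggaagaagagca

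The rest of the chromosome axis and synaptonemal complex did not follow Stag3. Syce2, a central element protein of the synaptonemal complex, was at 1776, 1575 and 1427 in Th2 WT and 445, 423 and 502 in Th2 Setdb1 KO, with no overlap (log2 difference -1.80, SE 0.33, adjusted p = 0.000128). In Th2-Th1 it was at 335 and 308 in WT and 334, 326 and 387 in Setdb1 KO (log2 difference 0.11, adjusted p = 0.87). Naive levels were far lower and overlapped, at 46.1, 17.8, 47.1 and 20.8 in WT and 48.3, 36.1 and 89.4 in Setdb1 KO. Gcdh, named after its values were seen, overlaps the span of Syce2. It was at 287 ± 27.1 in Th2 WT and 441 ± 47.0 in Th2 Setdb1 KO (n = 3 each, adjusted p = 0.0233, limma). In Th2-Th1 Gcdh was at 615 ± 122 in WT (n = 2) and 363 ± 37.3 in Setdb1 KO (n = 3, adjusted p = 0.0235, limma). Its naive levels were 444 ± 137 in WT (n = 4) and 406 ± 117 in Setdb1 KO (n = 3). Hormad2, a protein of the unpaired axis, was at 94.8, 48.2 and 155 in Th2 WT and 38.5, 29.1 and 13.5 in Th2 Setdb1 KO (log2 difference -1.80, adjusted p = 0.0356). It was at 24.8 and 18.6 in Th2-Th1 WT and 34.2, 32.6 and 47.3 in Th2-Th1 Setdb1 KO, and at 9.71 or less in every naive library. The Th2 call was lost in 7 of 16 alternatives, among them equal totals (adjusted p = 0.115) and leaving out WT replicate 1 (0.0766) or 3 (0.142) or Setdb1 KO replicate 2 (0.0603) or 3 (0.156). Syce1, another central element protein, was at 74.4 and 48.8 in Th2-Th1 WT and 1.96, 11.5 and 0 in Th2-Th1 Setdb1 KO (log2 difference -4.20, SE 1.36, adjusted p = 0.0218). In Th2 WT 1 library stood far above the others, 161 against 2.02 and 17.5, while Th2 Setdb1 KO was at 1.99, 7.61 and 0.5, and naive groups overlapped between 2.78 and 36.7. The Th2-Th1 call was lost without WT replicate 1 (adjusted p = 0.12) or 2 (0.0788), or Setdb1 KO replicate 1 (0.0532) or 3 (0.0932). Rec8, Smc1b, Sycp1, Sycp2, Sycp3 and Hormad1 were called in no genotype comparison, with group means of at most 25.6.

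Of the 7 recombination genes 6 passed the filter, and 4 were higher in Setdb1 KO both in Th2 and in Th2-Th1, with 0 lower (29.3% of all genes tested were higher in Th2 and 17.6% in Th2-Th1). Spo11, the enzyme that makes the DNA breaks of meiosis, was at 2.02, 14.8 and 0 in Th2 WT and 93.0, 89.5 and 89.9 in Th2 Setdb1 KO (log2 difference 4.66, SE 0.66, adjusted p = 6.21e-06). In Th2-Th1 it was at 11.8 and 6.97 in WT and 162, 95.2 and 106 in Setdb1 KO (log2 difference 3.55, adjusted p = 0.000884). In naive cells Spo11 was present in both genotypes, at 72.3, 61.6, 29.0 and 70.9 in WT and 114, 99.9 and 120 in Setdb1 KO. These naive groups did not overlap but the difference did not pass the test (log2 difference 1.00, SE 0.62, adjusted p = 0.369). Within WT, Spo11 was lower in Th2 than in naive cells (log2 difference -3.95, adjusted p = 1.18e-05). Mei1, needed for the same breaks, did not pass the filter, and Tex11 was called in no genotype comparison.

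Msh5 and Msh4 are MutS homologues that form 1 complex on recombination intermediates. Msh5 was at 14.11, 29.69 and 14.97 in Th2 WT and 88.21, 75.67 and 59.95 in Th2 Setdb1 KO (log2 difference 1.94, adjusted p = 0.00102). In Th2-Th1 it was at 28.4 and 11.6 in WT and 54.3, 40.1 and 76.4 in Setdb1 KO (log2 difference 1.54, adjusted p = 0.021), a call lost without WT replicate 2 (0.286) or Setdb1 KO replicate 3 (0.0848). Its naive values, 21.2, 13.7, 16.3 and 17.9 in WT and 23.5, 40.2 and 26.4 in Setdb1 KO, did not overlap but did not pass the test. Msh4 reached at most 52.2 in any library. It was higher in Setdb1 KO by a log2 difference of 3.03 in Th2 (adjusted p = 0.00289) and 3.19 in Th2-Th1 (adjusted p = 0.00798, and 0.0602 without WT replicate 1).

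Dmc1 is the recombinase that pairs the broken ends with the homologous chromosome. Its Th2 values were 0, 14.8 and 0 in WT and 22.6, 22.4 and 25.0 in Setdb1 KO (log2 difference 3.27, adjusted p = 0.0126). Every Setdb1 KO value was above every WT value, but the call was lost in edgeR (adjusted p = 0.156), in DESeq2 (0.191) and without WT replicate 1 (0.0672) or 3 (0.0675). In Th2-Th1, Dmc1 had no read in WT and was at 7.34, 16.5 and 27.1 in Setdb1 KO, at least 4.83-fold higher (adjusted p = 0.0123, and 0.0623 or 0.0692 without WT replicate 1 or 2). In naive cells it was at 14.97 or less in every library. Dmc1 is given library by library, though its group means stay under 50, because of its peaks. Its promoter window, chr15:79605060-79605359 on the - strand, is shown because a WT H3K9me3 peak lies beside it, with 2 GCGGGA matches (read as TCCCGC) in capitals.
Dmc1: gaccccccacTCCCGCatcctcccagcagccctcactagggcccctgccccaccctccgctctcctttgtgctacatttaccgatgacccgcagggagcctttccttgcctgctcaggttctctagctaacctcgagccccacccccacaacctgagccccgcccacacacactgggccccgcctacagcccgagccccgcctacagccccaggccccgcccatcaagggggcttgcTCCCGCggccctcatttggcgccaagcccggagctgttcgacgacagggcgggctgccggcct

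Tex15, which acts in recombination and in the methylation of transposons in male germ cells, was the member that passed only in naive cells. It was at 22.4, 8.22, 30.8 and 5.67 in naive WT and 27.3, 51.4 and 50.4 in naive Setdb1 KO (log2 difference 1.53, SE 0.38, adjusted p = 0.0131). The groups overlapped, and the call was lost without Setdb1 KO replicate 2 (0.0751) and in a fit of these 2 groups alone (0.159). In Th2 it was at 1373, 1408 and 1397 in WT and 1823, 2054 and 2111 in Setdb1 KO (log2 difference 0.52, adjusted p = 0.311). These Th2 groups did not overlap, and the adjusted p was 0.0432 with equal totals as the scaling and 0.000327 in a fit of the 2 groups alone. In Th2-Th1 the groups overlapped, at 1493 and 1645 in WT and 1035, 1249 and 1869 in Setdb1 KO.

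Tcfl5, a helix-loop-helix transcription factor of spermatocytes, was high only in cultured Setdb1 KO cells. It was at 2.02, 11.1 and 0 in Th2 WT and 79.9, 81.9 and 40.0 in Th2 Setdb1 KO (log2 difference 4.29, SE 0.77, adjusted p = 9.16e-05). In Th2-Th1 it had no read in WT and was at 146, 205 and 102 in Setdb1 KO, at least 43.0-fold higher (adjusted p = 3.19e-06). In naive cells 1 of 7 libraries, a WT one at 1.81, had any read. By limma the genotype difference changed with Th2 culture (interaction log2 4.66, SE 1.05, adjusted p = 0.00139), but the interaction did not pass in edgeR (adjusted p = 0.144). Col9a3 overlaps the span of Tcfl5 (chr2:180621956-180642691) and was named after its values were seen. It was at 11.4 ± 5.37 in Th2 WT and 31.3 ± 9.11 in Th2 Setdb1 KO (n = 3 each, adjusted p = 0.00802, limma). In Th2-Th1 the mean of Col9a3 was 28.7 in WT (n = 2) and 40.9 in Setdb1 KO (n = 3, adjusted p = 0.517, limma). Its naive means were 68.8 in WT (n = 4) and 58.2 in Setdb1 KO (n = 3, adjusted p = 0.813, limma), where Tcfl5 was at 1.81 or less. Whether Col9a3 reads add to the Tcfl5 count was not tested. The promoter window of Tcfl5, chr2:180642642-180642941 on the - strand, overlaps H3K9me3 peaks of WT and Setdb1 KO lists and holds 1 GCGGGA match, in capitals.
Tcfl5: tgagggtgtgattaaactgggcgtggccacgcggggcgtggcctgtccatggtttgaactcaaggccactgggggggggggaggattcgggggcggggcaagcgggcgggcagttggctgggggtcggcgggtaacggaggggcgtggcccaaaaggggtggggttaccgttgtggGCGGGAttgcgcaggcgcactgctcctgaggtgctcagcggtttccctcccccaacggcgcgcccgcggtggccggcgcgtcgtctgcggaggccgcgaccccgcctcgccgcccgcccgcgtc

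Brdt, the testis member of the BET family that reads acetylated histones, went the other way. It was at 122, 125, 174 and 108 in naive WT and 124, 108 and 119 in naive Setdb1 KO. In Th2 it was at 28.2, 35.3 and 27.4 in WT and 3.97, 8.96 and 17.0 in Setdb1 KO (log2 difference -1.69, SE 0.47, adjusted p = 0.00461). In Th2-Th1 it was at 59.1 and 48.8 in WT and 24.5, 14.5 and 6.41 in Setdb1 KO (log2 difference -1.93, adjusted p = 0.00709, and 0.0581 without WT replicate 1). Brdt was the 1 member called lower in both cultured conditions. The RNA-binding protein gene Dazl and the pluripotency-linked Dppa2 missed the threshold in every genotype comparison, although their Th2 groups did not overlap. Dazl was at 11.4 ± 12.1 in Th2 WT and 30.3 ± 7.14 in Th2 Setdb1 KO (n = 3 each, adjusted p = 0.0662, limma), and passed with equal totals (0.0298), with a pseudocount of 10 (0.0261) and without WT replicate 2 (0.0144). Dppa2 was at 34.11 ± 7.19 and 12.01 ± 6.13 (n = 3 each, adjusted p = 0.132, limma), and passed with a pseudocount of 10 (0.00458) and in a fit of these groups alone (0.0198). Of the other members of these groups, Taf7l, Tex101, Slc25a31, Zfp42 and Dppa4 did not pass the filter.

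**Figure D3:**
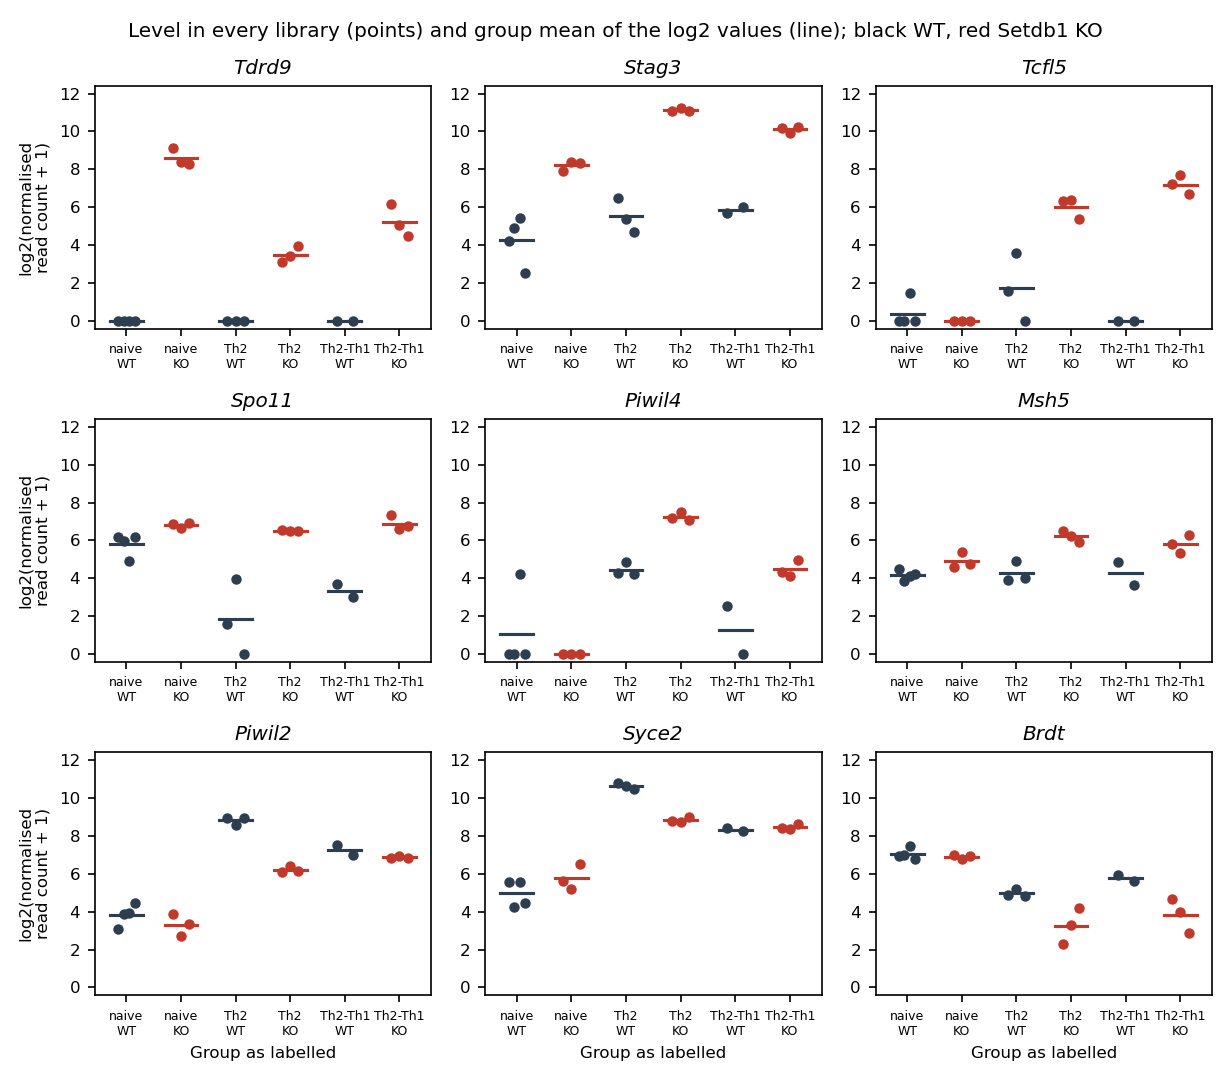
Level of 9 members in each library (points) with the mean of the log2 values (line) in the 6 groups; the y axis is log2(normalised read count + 1), black is WT and red Setdb1 KO. Tdrd9 is at 0 in WT and above 0 in every Setdb1 KO library, Tcfl5 is high in cultured Setdb1 KO cells and at 0 in naive Setdb1 KO, Spo11 is low in cultured WT cells, and Piwil2 and Syce2 are highest in Th2 WT.

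The comparisons within WT served as a reference for what culture does to these genes. From naive to Th2, 8 members were higher and 3 lower (background: 32.8% of all genes higher and 33.1% lower, 65.9% in all). Tex15 rose by a log2 difference of 6.57 (SE 0.38, adjusted p = 1.13e-11), Syce2 by 5.68 (adjusted p = 4.16e-12), Hormad2 by 5.17 (adjusted p = 8.27e-07) and Piwil2 by 4.99 (adjusted p = 1.12e-10). Dppa2, Piwil4, Tdrd7 and Stag3 were higher as well, while Spo11, Brdt and Msh4 were lower. Of the 5 members lower in Th2 Setdb1 KO, Syce2, Hormad2, Piwil2 and Tdrd7 were higher in WT Th2 than in WT naive cells, and Brdt was lower. From Th2 to Th2-Th1 in WT, 1 member, Tdrkh, was higher (25.8% of all genes) and 5 were lower (24%, and 49.8% either way): Dppa2, Piwil4, Syce2, Hormad2 and Piwil2. Stag3 lost its naive to Th2 call without naive WT replicate 4 (adjusted p = 0.088) or Th2 WT replicate 1 (0.18), and Msh4 without Th2 WT replicate 1 (0.161). For the switch, calls were lost without Th2-Th1 WT replicate 2 for Piwil2 (0.0537) and Piwil4 (0.237), and for Hormad2 without Th2 WT replicate 1 (0.0771) or 3 (0.133) or Th2-Th1 WT replicate 1 (0.0922) or 2 (0.171). These comparisons share WT libraries with those by genotype. Whether the genotype difference changed was tested by interaction: 9 members passed for Th2 culture (background 41.3% of all genes) and 5 for the Th1 switch (35.5%).

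The other genes of these pathways were counted from lists of non-members. Of 51 other germline genes 20 passed the filter. In Th2, 8 were higher and 4 lower (29.3% and 24.7% of all genes tested), among them the RNA-binding protein gene Cpeb1 (log2 difference 5.49, SE 1.04, adjusted p = 0.000178) and the piRNA factor Gtsf1 (3.25, adjusted p = 0.00271) on the higher side and Hfm1 and Ddx25 on the lower. In Th2-Th1, 4 were higher (Gtsf1, Tex19.1, Boll and Dppa3) and 2 lower (17.6% and 16.1% of all genes tested). In naive cells Trip13 alone was higher and 0 were lower (7.43% and 3.45%). Of 19 somatic partners and paralogs all passed, and in Th2 9 were higher and 5 lower (29.3% and 24.7% of all genes tested). In Th2-Th1 the counts were 3 higher and 7 lower (17.6% and 16.1%), and in naive cells 6 and 0 (7.43% and 3.45%). In Th2, Mov10, the somatic relative of Mov10l1, was higher by a log2 difference of 2.92 (SE 0.24, adjusted p = 4.82e-09). The somatic cohesin subunit Stag2 was lower (log2 difference -0.84, SE 0.12, adjusted p = 5.09e-06) where Stag3 was higher. Stag1, named after its values were seen, was higher by 0.55 in Th2 (SE 0.09, adjusted p = 5.72e-05) and by 0.37 in Th2-Th1 (adjusted p = 0.0105). Of 26 repressors of germline genes 14 were higher and 4 lower in Th2 Setdb1 KO, beside the same 29.3% and 24.7% of all genes. Those higher included Setdb1 itself, Morc2a (log2 difference 2.39) and Dnmt3b (1.92), and those lower included Kdm5b (-1.60) and Rnf2 (-0.73).

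H3K9me3 peaks were then read at the members, counting a peak that overlapped the gene span extended by 5 kb on each side (RefSeq positions, mm10). The 37 members were longer than other genes, with a median span of 39.9 kb against 17.2 kb. In naive WT 8 members had a peak (21.6%, beside 18.9% of 21887 protein-coding genes), and in Th2 WT 10 had one (27%, beside 19.4%). These shares stood near the background. In both Setdb1 KO lists 1 member, Tcfl5, had a peak (2.7%, beside 2.45% of all genes in naive and 2.33% in Th2 cells). Of the 10 members with a Th2 WT peak 9 had none in the Th2 Setdb1 KO list (90%), as did 93% of all protein-coding genes with a Th2 WT peak. In the Suv39h1-/- Th2 list, which covers 77.0 Mb against 19.5 Mb in WT, 21 members had a peak (56.8%, beside 50.7%). The Th2 Setdb1 KO list covers 2.56 Mb. Since each condition has 1 list, differences between lists have no replicate check.

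Peaks at the gene start itself were few. Within 1 kb of the start, for the 31 members with a start in the RefSeq table, a Th2 WT H3K9me3 peak lay at Stag3, Dmc1 and Tcfl5 (9.68%, beside 1.11% of all genes), and a naive WT peak at Stag3 and Tcfl5 (6.45%, beside 1.09%). In both Setdb1 KO lists Tcfl5 alone had one (3.23%, beside 0.292% in naive and 0.532% in Th2 cells), and in the Suv39h1-/- list 6 members did (19.4%, beside 9.92%). Stag3, Dmc1 and Tcfl5 were called higher in Th2 Setdb1 KO, though the Dmc1 call was lost in edgeR and DESeq2. The share called higher among all genes with a peak at the start was not computed. Whether such a peak goes with the RNA difference was not tested. Spo11, Msh4, Msh5, Piwil4 and Tdrkh were higher in Th2 Setdb1 KO with no Th2 WT H3K9me3 peak in the span or its flanks. Among members with a Th2 WT peak in that window and enough reads to test, 4 of 9 were higher in Th2 Setdb1 KO and 3 lower. Among those without, 5 of 17 were higher and 2 lower. Over all protein-coding genes the shares called higher were 34.1% with a peak and 32.7% without.

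The 4 loci with a WT H3K9me3 peak and higher RNA in Setdb1 KO differed in what the other marks did. At Stag3 the Th2 WT H3K9me3 peak chr5:138280451-138281350 covers the start, and a naive WT peak lies at chr5:138280251-138281350. Both were absent in Setdb1 KO lists, and 2 H3K27ac peaks stood at the start in Th2 Setdb1 KO (chr5:138279715-138279919 and chr5:138280524-138281735) with none in Th2 WT. The ATAC peak there was called in both genotypes. Each H3K27ac and ATAC list comes from 1 library. Of the 6 members with an H3K27ac peak at the start in Setdb1 KO, Stag3 was the 1 with none there in WT. Over all genes this held for 262 of 8822 (2.97%). Gpc2 starts beside Stag3, so the peaks at the Stag3 start cannot be assigned to Stag3 alone.

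At Tdrd9 the marks lay inside the gene. Naive WT H3K9me3 peaks stood at chr12:111972901-111973600, just inside the start, at chr12:112018951-112023000 and at chr12:112061551-112062000, and the Th2 WT list had 1 at chr12:111995651-111996350. None was in a Setdb1 KO list. In Th2 Setdb1 KO 6 H3K27ac peaks lay between chr12:112010385 and 112020798, next to the second naive WT H3K9me3 peak, with ATAC peaks at chr12:112017091-112017328 and chr12:112021050-112021276. Th2 WT lists had no H3K27ac or ATAC peak in that stretch. No list had an H3K27ac or ATAC peak within 1 kb of the annotated Tdrd9 start.

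At Tcfl5 H3K9me3 was called in all 5 lists, Setdb1 KO included (chr2:180642701-180644600 in Th2 WT and chr2:180642801-180643950 in Th2 Setdb1 KO), and no list had an H3K27ac or ATAC peak at the gene. Its RNA was higher in cultured Setdb1 KO cells. At Dmc1 the Th2 WT H3K9me3 peak chr15:79604001-79604500, inside the gene, was absent in Th2 Setdb1 KO, where a small ATAC peak, chr15:79605159-79605243, stood at the start and none did in WT. Scores of different lists are not on 1 scale and are not compared.

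**Figure D4:**
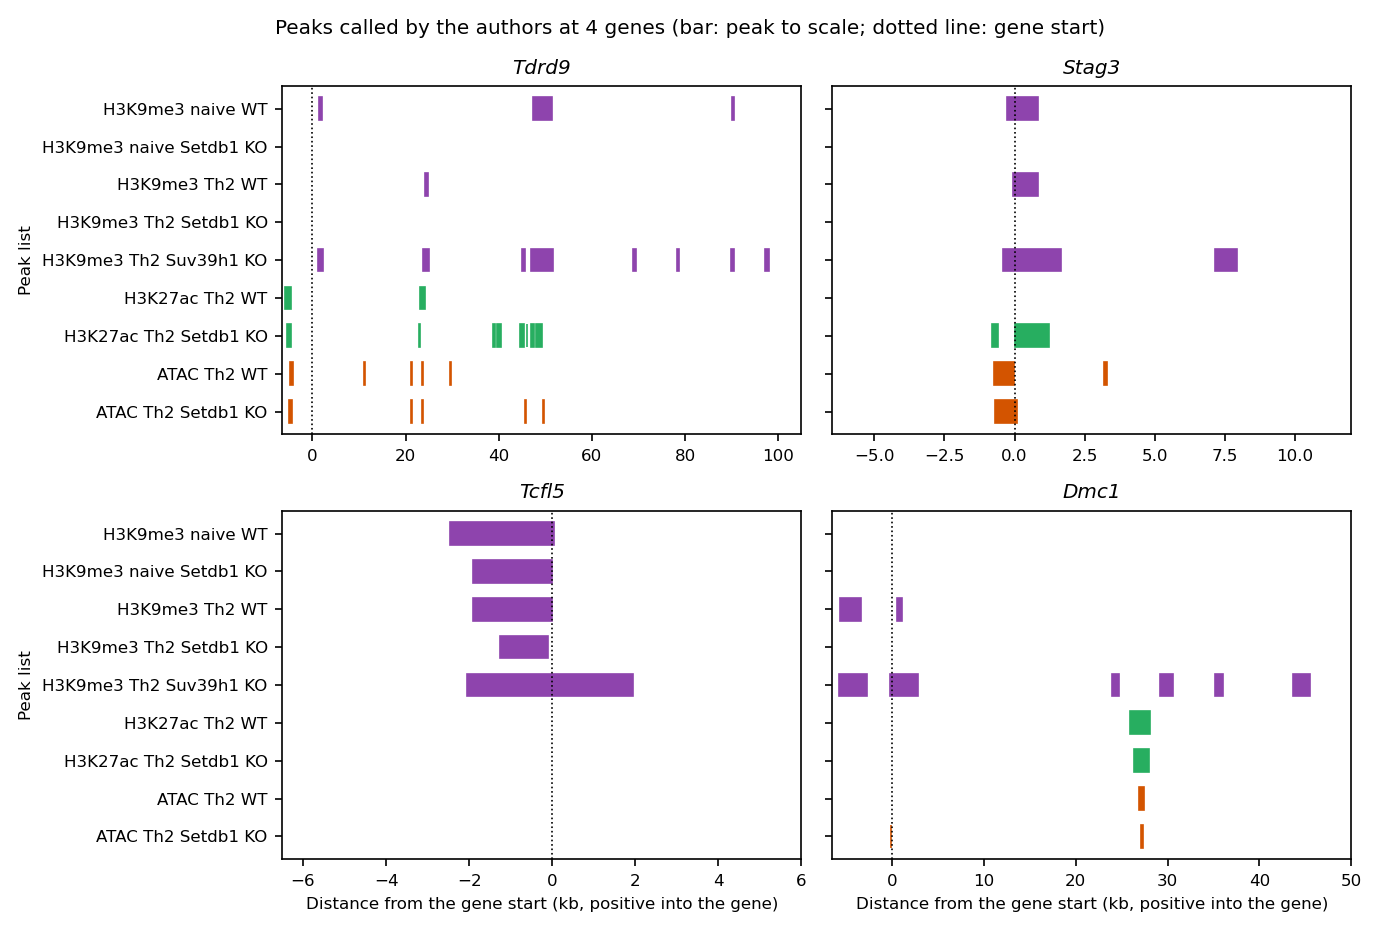
Peaks of the 9 H3K9me3, H3K27ac and ATAC lists (rows) around Tdrd9, Stag3, Tcfl5 and Dmc1, drawn to scale by distance from the gene start in kb (x axis, positive into the gene; each panel has its own range). H3K9me3 bars are missing from both Setdb1 KO rows except at Tcfl5, H3K27ac appears at the Stag3 start in Setdb1 KO alone, and Setdb1 KO has extra H3K27ac and ATAC bars inside Tdrd9.

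The members that were lower in Setdb1 KO, and the active marks in general, were read in the same way. Piwil2, Hormad2 and Brdt had Th2 WT H3K9me3 peaks inside the gene, Hormad2 with 7 of them. All 3 were expressed in Th2 WT and lower in Th2 Setdb1 KO, whose list had none of these peaks. Tex15 had 4 such peaks in Th2 WT, at a level above 1000 in every Th2 library. H3K27ac was called at 17 members in Th2 WT (45.9%, beside 60.6% of all genes) and 18 in Th2 Setdb1 KO (48.6%, beside 60.7%). Tdrd7 and Dppa4 had it in WT alone, and Stag3, Ddx4 and Msh4 in Setdb1 KO alone. At the start, 7 members in WT and 6 in Setdb1 KO had H3K27ac (22.6% and 19.4%, beside 51.3% and 50.4%), and 12 in each genotype had an ATAC peak (38.7%, beside 62.5% in WT and 57.8% in Setdb1 KO). Hormad2 and Tdrd7 had an H3K27ac peak there in WT and none in Setdb1 KO. ATAC peaks were at 27 members in WT (73%, beside 76.9%) and 23 in Setdb1 KO (62.2%, beside 72.4%). Spo11, Piwil4, Msh5 and Tdrkh carried H3K27ac and ATAC peaks in both genotypes.

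**Figure D5:**
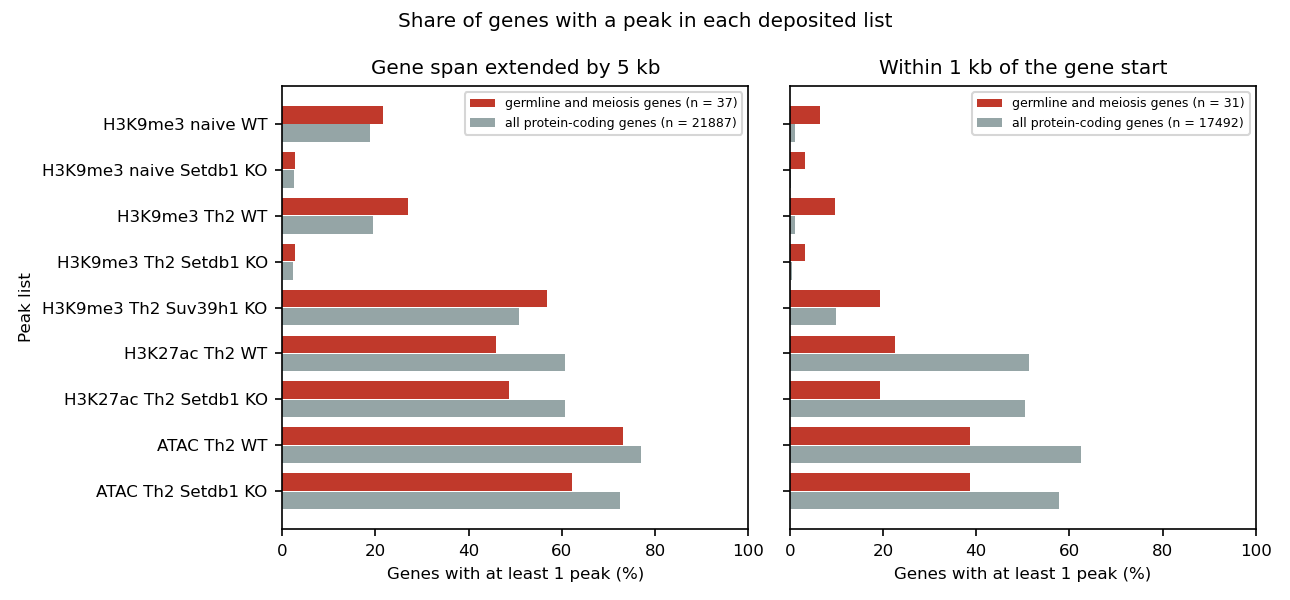
Share of the members (red) and of all protein-coding genes (grey) with at least 1 peak in each list (rows), in the gene span extended by 5 kb (left) and within 1 kb of the gene start (right); the x axis is in percent. H3K9me3 shares near the start are 9.68% against 1.11% in Th2 WT, and H3K27ac and ATAC shares of the members lie below those of all genes.

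Some promoters of the members held letters that the choice by name did not use. CACGTG, which reads the same on both strands, was in the 300-base window of 13 of 31 members (41.9%, beside 8.09% of 27025 genes with a RefSeq window). GCGGGA, searched on both strands (TCCCGC on the other), was in 14 of 31 (45.2%, beside 22%). This background was not limited to protein-coding genes, of which 17492 had a gene start. The shares over protein-coding genes alone were not computed, so part of the contrast may come from the background. The 2 motifs share no overlap in any window printed here. Both stand in the Stag3 window, CACGTG alone in that of Tdrd9, and GCGGGA alone in those of Dmc1 and Tcfl5. The members' windows were also richer in CpG, with a median observed to expected ratio of 0.78 against 0.415 over the same 27025 genes. CACGTG and GCGGGA each hold a CpG, so the CpG content could not be told apart from the share with either motif. A match is a description of the letters, not a bound site. Among the 13 members with CACGTG, Stag3 and Tdrd9 were higher in Th2 Setdb1 KO and Syce2 and Brdt lower.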

How the data were processed

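The members and gene lists were chosen with earlier results of these data known. RNA values are the deposited signal, gene read counts divided by size factors, as the deposited steps show: 100% of the authors' values were whole multiples of 1 read (tolerance 0.01). The table holds 2 identical copies of 39179 genes, and the first was used. Per the submitters' processing notes, cutadapt 1.3, TopHat2 2.0.5, BWA 0.7.10, MACS2 2.1.0, DESeq and mm10 were used; no source used here names the annotation or strand setting for counting. The peak score is the authors' deposited value per peak and was used only within a list. Each condition has 1 list. The H3K9me3 lists of naive WT and of Th2 WT, Setdb1 KO and Suv39h1-/- cells each pool 2 libraries. The naive Setdb1 KO H3K9me3 list and every H3K27ac and ATAC list come from 1 library each.

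Values were tested as log2(value + 1) with limma 3.58.1 in R 4.3.3, all 18 libraries in 1 fit, after keeping genes at 10 or more in at least 2 libraries, at an adjusted p of 0.05. The procedure was tested on simulated data. edgeR 4.0.16 and DESeq2 1.42.0 ran on the recovered reads as alternatives. Of 17254 genes, limma, edgeR and DESeq2 called 1877, 1895 and 2560 in naive cells, 9324, 9189 and 9372 in Th2 and 5810, 6043 and 6392 in Th2-Th1. Members called in at least 1 genotype comparison with a mean of at least 50 in 1 group are given library by library, others by range; of each list of non-members up to 4 called genes each way may be named. Replicate numbers were not used to pair libraries. Of 40 same-number pairs, 1 had a correlation over 0.1, beside 5 of 94 pairs with unlike numbers. That 1 pair was replicate 3 of Th2 and of Th2-Th1 Setdb1 KO (0.13). A count over all groups cannot exclude pairing between some of them. Tables were handled in Python 3.11.15 with pandas 2.3.3.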

Additional observations from a re-analysis of the deposited data

Results flagged for a closer look

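In naive WT, 1 library stood apart from the other 3 for 9 of the 37 members, by a gap to its nearest neighbour, as a share of the whole range, above Dixon's critical value for 4 samples. The high library was replicate 3 for Piwil4 (1.0), Tcfl5 (1.0), Zfp42 (1.0), Tdrd1 (0.951), Sycp3 (0.937), Mei1 (0.902), Sycp1 (0.878) and Taf7l (0.862), and replicate 1 for Dmc1 (0.879). The rate of about 1 in 20 groups that belongs to this critical value assumes a normal spread, and most of these values lie near 0. A member read in 1 library alone gives a gap of 1.0 at any level, and Tcfl5 rests on a value of 1.81. Naive WT was the only group with enough libraries for this rule. Naive WT replicates 1 and 3 are also the ones with most genes detected at equal depth.

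The interaction (limma, log2 scale) was the Th2 difference by genotype minus the naive one, and 41.3% of all genes passed it. For 9 of the 26 members tested the genotype difference changed between naive and Th2 cells. It was larger in Th2 for Tcfl5 (4.66), Msh4 (3.96), Piwil4 (3.88), Spo11 (3.66) and Tdrkh (1.04). It was lower in Th2 for Tdrd9 (-5.11), Syce2 (-2.62), Hormad2 (-2.58) and Piwil2 (-2.08). From Th2 to Th2-Th1 it changed for 5 members, beside 35.5% of all genes: Piwil2 (2.23), Tdrd7 (2.1), Syce2 (1.91), Tdrkh (-1.48) and Dazl (-4.02). The Dazl call was lost in 14 of 20 alternatives and the Hormad2 call in 11 of 24, among them equal totals (adjusted p = 0.0783, limma), the replicate block (0.0953) and 6 fits without 1 library (up to 0.114). The calls of Tdrd9 and Tcfl5 were lost in edgeR, and that of Tdrd9 compares Setdb1 KO levels alone, since WT was at 0.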

How the results depend on the processing

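No result reversed. DESeq2 called 5 members in naive cells (3 in limma). For the Th1 switch interaction 8 members passed with a pseudocount of 10 and 9 in a fit of its groups alone (5 in limma). Detection at a mean of 5 gave 24 members in naive WT; at 50 it gave 4 in naive WT, 7 in naive Setdb1 KO, 8 in Th2 WT, 10 in Th2 Setdb1 KO and 9 in Th2-Th1 Setdb1 KO. For H3K9me3, naive WT had 14 members with 20 kb flanks and 2 within 1 kb of the start; Th2 WT had 3 and Suv39h1-/- 6 at the start, Suv39h1-/- 13 among peaks above the median score, and both Setdb1 KO lists 0 in the span alone. At the start, H3K27ac was at 7 members in WT and 6 in Setdb1 KO, and ATAC at 12 and 12. Leaving out 1 library gave 2 to 5 members called in naive cells, 11 to 15 in Th2, 6 to 11 in Th2-Th1, 9 to 15 for WT Th2 against naive, 3 to 7 for the WT switch, and 8 to 11 and 4 to 7 for the interactions. Detected members ran from 12 to 19 in naive WT, 13 to 14 in naive Setdb1 KO, 12 to 14 in Th2 WT, 14 to 18 in Th2 Setdb1 KO, 10 to 14 in Th2-Th1 WT and 15 to 15 in Th2-Th1 Setdb1 KO. With the replicate block, 3, 14 and 11 members were called in the 3 genotype comparisons, 13 and 6 in the WT comparisons, and 9 and 4 in the interactions; same-number correlations ran from -0.41 to 0.13. With equal totals as the scaling, 11 of 26 members were higher and 3 lower in Th2, beside 43.3% and 15.6% of all genes. TMM scaling moved the median of all genes in Th2 from 0.13 to 0.24. Depth limits members near 10, since WT cultured libraries are the shallower ones.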
